A study of Rattus norvegicus with 6 samples.

Results

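The miR-29 family was followed as 5 mature microRNAs (miRNAs), taken by name from a deposited table of 763 rat miRNAs: rno-miR-29a-3p, rno-miR-29b-3p and rno-miR-29c-3p, which are the guide arms, and rno-miR-29a-5p and rno-miR-29c-5p, which come from the other side of the same hairpins. All 5 had at least 1 count in some library. Of these, 3 (the 3p arms) were abundant enough to be tested among 226 miRNAs, and 2 (the 5p arms) were not. The remaining 2 family arms in the table, miR-29b-5p and miR-29b-1-5p, are given as values only. Values per library run in the order of replicates 1, 2 and 3.

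Small RNA was sequenced from exosomes, small vesicles that cells release, collected from serum of adult male Sprague-Dawley rats (9 to 10 weeks old, 250 to 280 g). The IPC group (3 libraries) stands for ischemic preconditioning: a ligature on the left anterior descending artery of the heart closed it for 5 min and released it for 5 min, 3 times over. In the control group (3 libraries) blood was drawn in the same way from rats that had no preconditioning, and no sham operation is described for them. Rats of both groups were under pentobarbital anesthesia, and blood came from the left ventricle. Whether the libraries of a group came from separate rats or from pools is not stated in the labels, so p-values here weigh library-to-library spread, which may be technical.

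miRNAs of this family share one seed, the stretch near the 5′ end that pairs with target mRNAs. They are best known for binding the mRNAs of collagens, fibrillin and elastin, the structural proteins of the extracellular matrix, and in mouse heart lowering miR-29 raises collagen mRNA. The 3p strand is the one usually loaded into the silencing complex, and the 5p strand is mostly degraded.

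The mature sequences below, from RefSeq (rat build GRCr8), are shown because the 3 tested arms carry the same seed and differ in few bases elsewhere. Capitals mark the seed, bases 2 to 8 counted from the 5′ end.
miR-29a-3p: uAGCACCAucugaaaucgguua
miR-29b-3p: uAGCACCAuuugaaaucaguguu
miR-29c-3p: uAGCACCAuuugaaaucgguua
miR-29a-5p: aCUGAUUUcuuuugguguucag
miR-29c-5p: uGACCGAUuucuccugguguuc

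All 7 family arms in the table matched a RefSeq entry, and 686 of the 763 table miRNAs did. The seed AGCACCA was held by 3 of these 686, the 3p arms themselves, and each 5p seed by 1. Counted from the 5′ end, miR-29c-3p differs from miR-29a-3p by 1 base, C10U. miR-29b-3p differs from miR-29a-3p by 4 bases over the 22 compared, C10U, G18A, U21G and A22U, and is 1 base longer. How reads matching several arms were assigned is unknown, so the division of reads among these near-identical arms is uncertain, above all between miR-29a-3p and the far rarer miR-29c-3p. The change at position 10 leaves UUU at positions 9 to 11 in miR-29b-3p and miR-29c-3p, as in 9 of 686 matched miRNAs (1.31%). In human cells those uracils are known for speeding the decay of miR-29b. AGUGUU, a motif that sends human miR-29b to the nucleus, starts at position 18 of miR-29b-3p, is in neither of the other 3p arms, and was found in 8 of 686 (1.17%), reading the mature strand only. No decay or location was measured here.

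The family comes from 4 hairpins in 2 clusters. In GRCr8, Mir29a (chr4:60617955-60618042) and Mir29b1 (chr4:60618334-60618414) lie on the minus strand 291 bases apart. Mir29b2 (chr13:109098831-109098911) and Mir29c (chr13:109099359-109099446) lie on the plus strand 447 bases apart. The deposited table carries no coordinates, and the submitters' processing notes name another build, rn6. Mature miR-29b-3p has the same sequence in Mir29b1 and Mir29b2, so its counts cannot be assigned to a cluster. The hairpins whose arms are both members are shown to place the arms, with the 5p arm as the first stretch in capitals and the 3p arm as the second.
Mir29a: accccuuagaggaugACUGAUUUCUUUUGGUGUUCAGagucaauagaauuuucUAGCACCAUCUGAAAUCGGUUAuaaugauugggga
Mir29c: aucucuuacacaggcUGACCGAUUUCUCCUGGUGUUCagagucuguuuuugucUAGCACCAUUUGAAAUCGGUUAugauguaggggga

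Total counts, recovered from the deposited values, ran from 319285 to 762927 in the IPC libraries and from 111048 to 152343 in the controls, a mean 4.44 times as high in the IPC group. In the test over all 226 miRNAs (limma, on log2 of the deposited normalised count plus 1), 0 miRNAs (0%) passed an adjusted p of 0.05, and 24 (10.6%; 20 higher and 4 lower in the IPC group) had an unadjusted p below 0.05. On recovered counts, limma-voom called 0 too, with 23 below 0.05 unadjusted. The median log2 fold change of all 226 was 0.38, and 142 (62.8%) were positive. Median-of-ratios scaling lowered that median by 0.24, left 53.5% positive and, at that unadjusted p, gave 12 higher and 7 lower. The 3 tested members stayed positive under it, at 0.98, 1.30 and 1.67 for the a, b and c forms. Without control replicate 2, 38 miRNAs (16.8%) passed.

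miR-29a-3p was the main miR-29 form in every library. It held rank 29, 17 and 20 among all miRNAs by count in the IPC libraries, and rank 25, 31 and 41 in the control libraries. It had 3597, 8920 and 3652 counts in the IPC libraries, against 512, 998 and 238 in the controls. On the deposited normalised scale these were 1340.3, 3739.5 and 2706.3 in the IPC libraries and 1564, 1235 and 544 in the controls, or 5041, 14062 and 10177 CPM (counts scaled to one library size) in the IPC libraries and 5885, 4644 and 2044 CPM in the controls. On both scales IPC replicates 2 and 3 lay above every control, but IPC replicate 1 lay below control replicate 1, so the groups overlapped. Both scales use effective library sizes, which are total counts times a factor (0.7835 in control replicate 1 and 1.4105 in control replicate 2). As a percent of total counts, IPC replicate 1 (0.471%) lay above control replicate 1 (0.461%) and below control replicate 2 (0.655%). None of the 3 tested members separated the groups, which 31 of the 226 tested miRNAs (13.7%) did in either direction.

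The mean level of miR-29a-3p was 2595.4 ± 1203.5 normalised counts in the IPC group, against 1114.5 ± 521 in the control group (SD, n = 3 each). The log2 fold change was 1.23 (SE 0.68), or 2.34-fold, with a 95% interval of -0.26 to 2.72. The call was not made (limma, unadjusted p = 0.0973, adjusted p = 0.531). By CPM, the highest library was 2.79 times the lowest within the IPC group and 2.88 times within the control group, both wider than the 2.34-fold difference between the groups. Without control replicate 3, its lowest library, the log2 fold change was 0.78. A level in these libraries cannot tell more vesicles of one source from more copies in each vesicle.

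**Figure D1:**
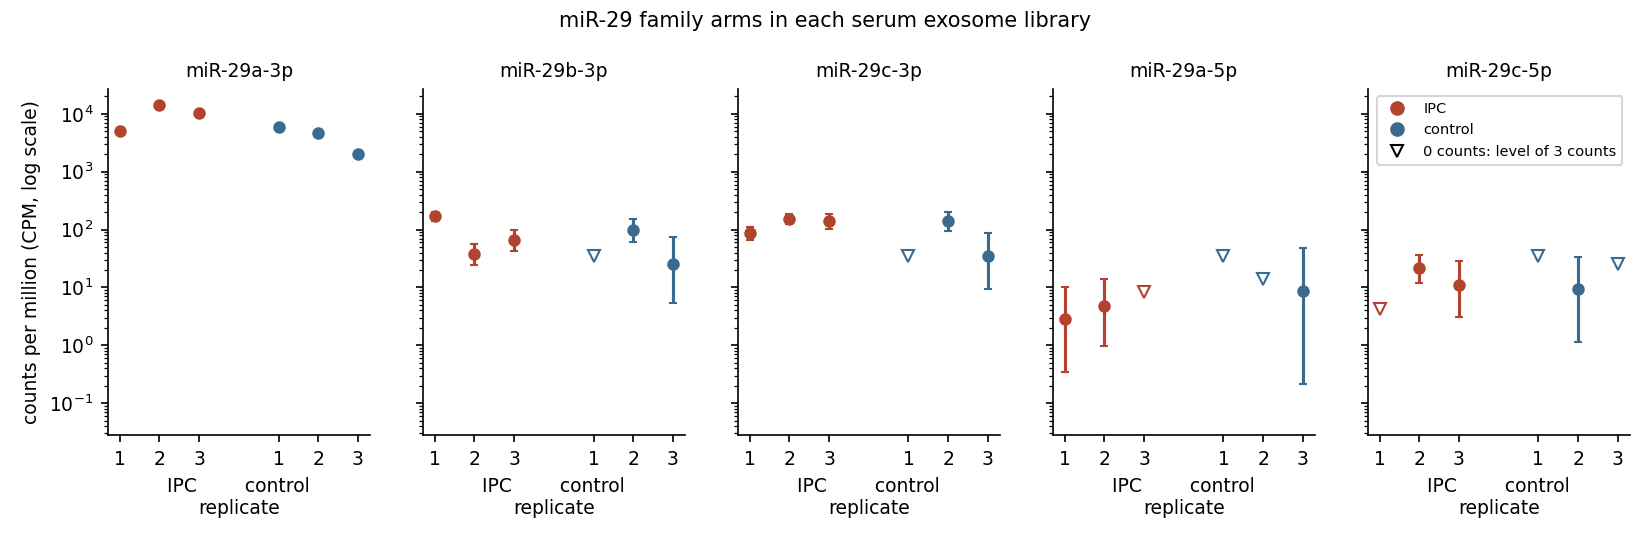
CPM (log scale) of the 5 members in each IPC and control library, with exact 95% Poisson intervals that cover counting error only. Open triangles stand for 0 counts, drawn at the level that 3 counts would give. miR-29a-3p lies between 2044 and 14062 CPM in all 6 libraries, and no other member passes 168 CPM.

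miR-29c-3p was far rarer. It had 62, 96 and 50 counts in the IPC libraries, which are 86.9, 151 and 139 CPM. The controls had 0, 30 and 4 counts, which are 0, 140 and 34.3 CPM. By CPM, control replicate 2 thus reached the level of the IPC libraries, while the other controls lay below all of them. As a percent of total counts, control replicate 2 (0.0197%) lay above every IPC library (0.00813%, 0.0145% and 0.0157%). The 0 of control replicate 1 allows up to 34.5 CPM (3 counts), under the lowest IPC library. The deposited value for that 0 was 0.784.

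The mean level of miR-29c-3p was 33.4 ± 9.26 normalised counts in the IPC group, against 15.8 ± 18.8 in controls (SD, n = 3 each). Its log2 fold change was 1.90 (SE 1.03), with a 95% interval of -0.35 to 4.16, and it was not called (limma, unadjusted p = 0.0902, adjusted p = 0.531). The SD on the log2 scale was 0.43 among the IPC libraries and 2.21 among the controls, where the medians over all tested miRNAs were 0.64 and 1.04. The fold change rested on which controls were kept. Leaving out control replicate 1 gave 0.74. Leaving out control replicate 2 gave 2.94, which passed the threshold (limma, adjusted p = 0.0276, range 0.0276 to 0.92 with 1 library left out).

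miR-29b-3p followed another order among the IPC libraries. It had 120, 24 and 24 counts in the IPC libraries, or 168, 37.8 and 66.9 CPM. The controls had 0, 21 and 3 counts, or 0, 97.7 and 25.8 CPM. IPC replicate 1, the lowest IPC library for miR-29a-3p and miR-29c-3p, was the highest of all 6 for miR-29b-3p, while IPC replicates 2 and 3 both lay below control replicate 2.

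The mean level of miR-29b-3p was 24.2 ± 18.6 normalised counts in the IPC group, against 11.3 ± 12.98 in controls (SD, n = 3 each). The log2 fold change of 1.53 (SE 1.05) had a 95% interval of -0.77 to 3.84 and was not called (limma, unadjusted p = 0.172, adjusted p = 0.548). Leaving out control replicate 1 gave 0.50 and leaving out IPC replicate 1 gave 0.97. Leaving out control replicate 2 gave 2.48 (limma, adjusted p = 0.0566, range 0.0566 to 0.978 with 1 library left out). A pseudocount of 5 gave 0.99.

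**Figure D2:**
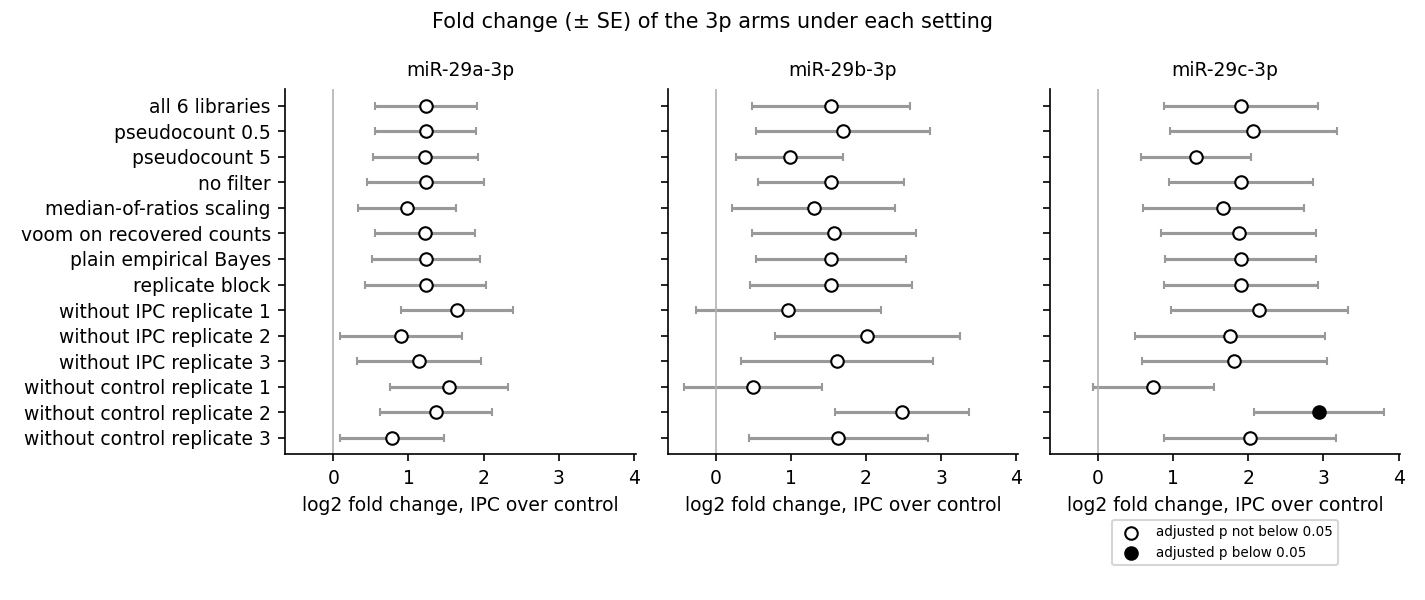
Log2 fold change of IPC over control (points) with its standard error (bars) for the 3p arms, with all 6 libraries, under 7 other settings and with each library left out. All 42 points lie above 0, and 1 of them, miR-29c-3p without control replicate 2 at 2.94, has an adjusted p below 0.05 (filled). No filter, plain empirical Bayes and the replicate block leave the fold change unchanged by construction.

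The authors' deposited table gives log2 fold changes of 1.22 for miR-29a-3p (p = 0.106), 1.04 for miR-29b-3p (p = 0.31) and 1.03 for miR-29c-3p (p = 0.286), with unadjusted p-values. These sit nearer to the log2 ratio of the group means of the deposited values, which was 1.22, 1.10 and 1.08 for the a, b and c forms. The limma values are differences of mean logarithms instead.

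Within the family, miR-29a-3p took 95.2%, 98.7% and 98.0% of the 3p counts in the IPC libraries, against 100%, 95.1% and 97.1% in the control libraries. The share of miR-29c-3p was 1.64%, 1.06% and 1.34% in the IPC libraries. In the controls it was 0% (0 of 512 counts, which allows up to 0.586%), 2.86% and 1.63%. The share of miR-29b-3p was 3.18%, 0.265% and 0.644% in the IPC libraries, and 0%, 2.00% and 1.22% in the controls. miR-29b-3p outnumbered miR-29c-3p in IPC replicate 1 alone.

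The exact 95% binomial interval of the miR-29b-3p share in IPC replicate 1, 2.64% to 3.79%, did not meet those of IPC replicate 2 (0.17% to 0.395%) or IPC replicate 3 (0.413% to 0.957%). This interval was chosen after its value was seen, and separate libraries differed beyond counting error over all miRNAs as well. No molecular identifiers are described, so such intervals hold counting error alone.

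**Figure D3:**
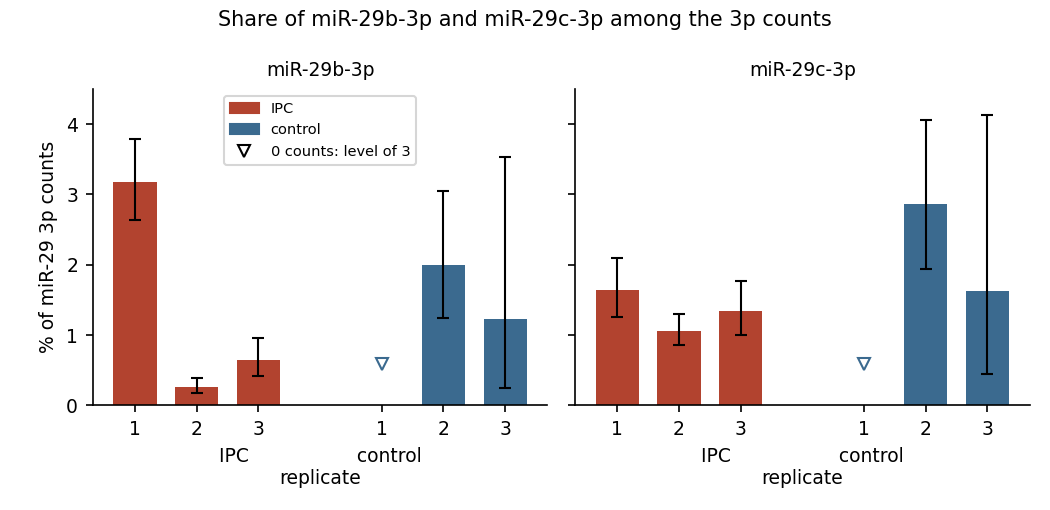
Share of miR-29b-3p (left) and miR-29c-3p (right) among the miR-29 3p counts of each library, in percent, with exact 95% binomial intervals; triangles mark 0 counts at the level of 3 counts. The miR-29b-3p share runs from 0.265% to 3.18% within the IPC group, and the miR-29c-3p share from 1.06% to 1.64%.

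Ratios of 2 members within a library cancel most of the scaling between libraries, and no difference in them passed a test. The log2 ratio of miR-29b-3p to miR-29a-3p was -6.83 ± 1.82 in the IPC group, against -7.13 ± 2.35 in controls (SD over 3 libraries each; two-sided exact permutation test, p = 0.9). The log2 ratio of miR-29c-3p to miR-29a-3p was -6.16 ± 0.35 in the IPC group, against -6.83 ± 2.57 in controls (two-sided exact permutation test, p = 1). The difference between groups was 0.67 for miR-29c-3p and -0.80 without control replicate 1. For miR-29b-3p it was 0.31, but leaving out control replicate 1 gave -1.04, leaving out IPC replicate 1 gave -0.68, and leaving out either IPC replicate 2 or control replicate 2 gave 1.11. With the ratios of 3p to 5p, 4 were tested, and all had an adjusted p of 1, where 3 against 3 libraries cannot give an unadjusted p under 0.1.

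The 5p arms were close to the limit of detection. miR-29a-5p had 2, 3 and 0 counts in the IPC libraries, and 0, 0 and 1 in the controls. miR-29c-5p had 0, 14 and 4 counts in the IPC libraries, and 0, 2 and 0 in the controls. Most counts of miR-29c-5p thus came from IPC replicate 2, and IPC replicate 1, the deepest library, had none.

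Scaled to effective library size, the pooled counts of miR-29c-5p were 2.21 times as high in the IPC group (18 against 2 counts, exact 95% interval 0.528 to 19.6, counting error only). That ratio was 0.78 without IPC replicate 2 and 3.79 without IPC replicate 1, and without control replicate 2 no control count was left. For miR-29a-5p the ratio was 1.23 (5 against 1 counts, interval 0.137 to 58.0), with 0.596 without control replicate 2 and 0.78 without IPC replicate 2, and no control count without control replicate 3. Neither ratio thus had a stable direction. A 0 in control replicate 1 allows up to 34.5 CPM, above the highest IPC level of miR-29c-5p, 22.1 CPM, so a difference of that size was not detectable at its depth. The authors' deposited table gives log2 fold changes of 1.33 for miR-29c-5p (p = 0.383) and 0.091 for miR-29a-5p (p = 1).

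With counts pooled over the libraries of a group, the 5p share was higher for miR-29c than for miR-29a. For miR-29a, the 5p arm made up 0.0309% of both arms' counts after IPC (5 of 16174, exact 95% binomial interval 0.01004% to 0.0721%) and 0.0572% in controls (1 of 1749, interval 0.00145% to 0.318%). For miR-29c it was 7.96% after IPC (18 of 226, interval 4.79% to 12.3%) and 5.56% in controls (2 of 36, interval 0.68% to 18.7%). The order was not seen in each library. IPC replicate 1 had 0 of 62 counts on the 5p arm for miR-29c and 2 of 3599 for miR-29a. Control replicate 3 had 0 of 4 for miR-29c and 1 of 239 for miR-29a. A 0 among so few counts does not exclude a higher share for miR-29c, so these libraries do not decide the order. Without IPC replicate 2 the IPC share for miR-29c was 3.45% (4 of 116). Each 5p arm had 0 counts in 3 of the 6 libraries, where a ratio of 3p to 5p is set by the pseudocount. No conclusion is therefore drawn from differences in that ratio between groups. Of the remaining arms, miR-29b-5p had 2, 0 and 0 counts in the IPC libraries and 0, 4 and 0 in the controls, and miR-29b-1-5p had 0 counts in all 6.

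The 3p arms differed in their pattern over the 6 libraries. On the log2 scale of the deposited values, Pearson's r was 0.84 between miR-29b-3p and miR-29c-3p, 0.36 between miR-29a-3p and miR-29c-3p, and 0.036 between miR-29a-3p and miR-29b-3p. Among the 225 other tested miRNAs, miR-29c-3p ranked 6 in likeness to miR-29b-3p, while miR-29b-3p ranked 131 in likeness to miR-29a-3p. The pair of rare forms shares its 0 in control replicate 1, the shallowest library, and the libraries share depth and scaling, so these are descriptions of 6 libraries.

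The 3 miRNAs outside the family most like miR-29a-3p were miR-103-3p (r = 0.95), miR-223-3p (r = 0.95) and miR-19b-3p (r = 0.94), over 6 libraries. miR-103-3p comes from introns of pantothenate kinase genes and is widely expressed. Its normalised counts were 234, 388 and 302 in the IPC libraries and 287, 273 and 160.3 in the controls. miR-223-3p, a miRNA of myeloid cells and platelets, had 543, 1177 and 1656 in the IPC libraries and 455, 363 and 156 in the controls. miR-19b-3p, of the miR-17-92 cluster, had 94.3, 219 and 286 in the IPC libraries and 151, 61.9 and 9.90 in the controls. Control replicate 3 was the lowest library for all of them, as for miR-29a-3p. Their log2 fold changes were 0.37, 1.78 and 1.95, and none passed (limma, adjusted p = 0.816, 0.35 and 0.46).

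Other miRNAs linked to fibrosis were set beside the family, in lists chosen with earlier results of these data known. Setting the lists against all 226 tested miRNAs is thus a description and tests no fibrosis pattern. In the list of 10 reported to restrain matrix genes or their inducers, all 10 were tested, 10 of 10 log2 fold changes were positive (9 of 10 without control replicate 3), and 0 passed the adjusted threshold (limma). Their median was 1.39, against 0.38 over all 226 miRNAs, of which 62.8% were positive. Without control replicate 2, 5 of 10 passed, all higher in the IPC group, where 16.8% of all tested passed. With no filter 1 of 10 passed, where 0.625% of 480 did. In the list of 8 reported to promote fibrosis, 6 were tested, 2 of 6 were positive and 0 passed, with a median of -0.005. Without control replicate 2, 1 of those 6 passed, a share close to the 16.8% of all tested. miR-1-3p, miR-133a-3p and miR-133b-3p of the restraining list are in the muscle marker list as well. So is miR-208a-3p of the promoting list, a miRNA of a cardiac myosin gene and one of its 2 positive members (log2 fold change 2.83).

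In the restraining list, miR-24-3p was the most abundant, at 17701 ± 3584 normalised counts in the IPC group, against 11525 ± 5407 in the control group (SD, n = 3 each), with a log2 fold change of 0.74 (SE 0.60). miR-1-3p, of heart and skeletal muscle, was at 6636 ± 5638 in the IPC group, against 705 ± 1092 in the control group, a log2 fold change of 4.36 (SE 1.25). miR-133a-3p, which the series title names, was at 3765 ± 2904 and 686 ± 231 in IPC and control libraries, a log2 fold change of 2.25 (SE 0.69). In the promoting list, miR-22-3p was at 6324 ± 3260 in the IPC group, against 8619 ± 3671 in the control group, a log2 fold change of -0.49 (SE 0.64). miR-21-5p, raised in fibroblasts of failing mouse hearts, was at 2150 ± 1083 and 1545 ± 1430 in IPC and control libraries, a log2 fold change of 0.79 (SE 0.77). miR-125b-5p was at 102 ± 18.2 in the IPC group, against 121.3 ± 92.0 in controls, and its log2 fold change of -0.0097 (SE 0.68) turned positive when IPC replicate 2, IPC replicate 3 or control replicate 3 was left out. Adjusted p-values of these 6 ran from 0.341 to 0.998 (limma). miR-29a-3p, at a mean near that of miR-21-5p and miR-133a-3p, thus lay between them in fold change.

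**Figure D4:**
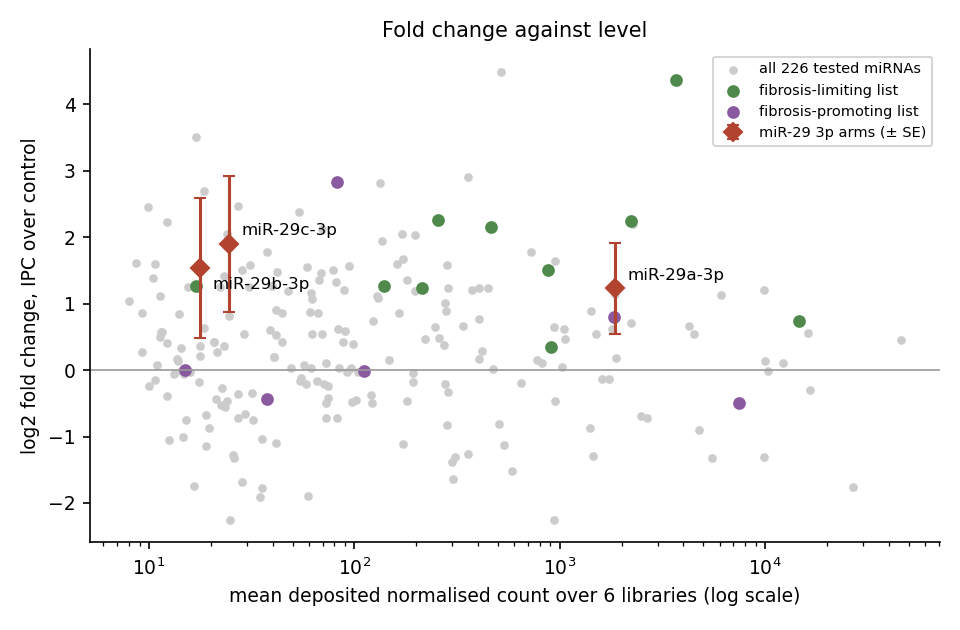
Log2 fold change of IPC over control against the mean deposited normalised count (log scale) for the 226 tested miRNAs, with the 3p arms of miR-29 (diamonds, ± SE) and the members of both fibrosis lists marked. The miR-29 arms lie at 1.23, 1.53 and 1.90, and 142 of the 226 miRNAs lie above 0.

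Markers of cells that serum RNA can come from were summed per library on the deposited scale. Striated muscle miRNAs (6 of 6 tested, all with positive log2 fold changes) summed to 4049 to 23396 in the IPC group, against 643 to 3446 in the control group. Platelet and leukocyte miRNAs (4 of 4 tested, 3 positive) summed to 3034.0 to 4833 in the IPC group, against 1327 to 1969 in the control group. On that scale the sums of both lists thus separated the groups. The sums were not compared as shares of total counts. Of all 226 tested miRNAs, 62.8% were positive and 13.7% separated the groups singly. miR-142-5p and miR-223-3p made up most of the platelet and leukocyte sum. miR-142-3p (log2 fold change -0.025) and miR-150-5p (0.43) overlapped between groups. Of the muscle miRNAs, miR-1-3p overlapped too, at 1235 in IPC replicate 1 and 1966 in control replicate 2. So did miR-499-5p, at 106 and 156 in those libraries, while the other muscle miRNAs did not overlap. Red-cell miRNAs (4 of 4 tested, 2 positive) summed to 12423 to 16025 in the IPC group, against 9509 to 23021 in the control group, and these overlapped. Liver miRNAs (3 of 3, 2 positive) summed to 1663 to 4184 in the IPC group and 3519 to 4314 in the control group. Endothelial miRNAs (2 of 2, both positive) summed to 179 to 730.1 in the IPC group and 245 to 593 in the control group. miR-144-5p of red cells was the only marker at 0 in a library. The part of any of these sources in the miR-29 levels was not tested.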

How the data were processed

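Small RNA of 6 serum exosome samples was sequenced, 3 per group, with NEBNext small RNA libraries and single-end HiSeq reads according to the labels' protocols. FastQC, BWA, edgeR and rn6 appear in the submitters' processing notes with neither version nor role. Trimming, alignment settings and miRNA release: not given in the sources used here. The deposited table holds a normalised signal per library, and the authors' log2 fold change and p-value, per the file headers.

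That deposited signal had the form of counts moved by negative binomial quantiles to a common library size, worked out from the values. The move was made within each group, around that group's own mean, so group labels entered the values that were tested. The value given to a 0 thus depends on its group and library: for miR-29c-5p it was 0.197 in control replicate 1 and 0 in IPC replicate 1. Inverting this move (dispersion 0.503, common size 265919) gave 4578 of 4578 values within 0.01 of a whole count, with recomputed values within 1.7e-08 in relative terms. Only 480 of the 763 miRNAs had a count. Values at the floor come back as 0 by construction, so their wholeness was fixed in advance. CPM are the recovered counts over effective library sizes.

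Tests used limma 3.58.1 (R 4.3.3; trended, robust) on log2(value + 1), since the values are not counts, with group as the only term and Benjamini-Hochberg adjustment over miRNAs with at least 10 counts at the median effective size (34.9 CPM) in 3 libraries and 15 in all. The added 1 shrinks fold changes of low miRNAs, but a library without counts can enlarge them. Those of miR-29b-3p and miR-29c-3p (1.53 and 1.90) lay above the log2 ratios of group means (1.10 and 1.08). Without control replicate 1, where neither had a count, they were 0.50 and 0.74. Ratios used exact permutation over 20 assignments. The floor for 0 is 3 counts. Each library counted as 1 replicate. Within a group, pairs of libraries differed far beyond sampling noise (chi-square per degree of freedom, 149.99 to 445). Such a spread may be technical and does not show that the libraries came from separate rats. Named miRNAs were the 5 members, the other miR-29 arms, the 3 most like miR-29a-3p and the 3 most abundant of each fibrosis list. Members and lists were chosen with earlier results of these data known. Scripts were tested on simulated data, using Python 3.11.15 with scipy 1.17.1, numpy 2.4.6 and pandas 2.3.3; matplotlib 3.10.9 drew the figures. Alternatives changed the pseudocount, filter, scaling, model, block and libraries.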

Additional observations from a re-analysis of the deposited data

How the results depend on the processing

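The log2 fold changes of the 3p arms were positive under all 39 alternatives run, which reuse the same 6 libraries. Dropping the filter, plain empirical Bayes and the replicate block leave the fold change as it is, so their signs were fixed in advance. With 1 library left out the fold changes ran from 0.78 to 1.64 for miR-29a-3p, 0.50 to 2.48 for miR-29b-3p and 0.74 to 2.94 for miR-29c-3p. Only miR-29c-3p without control replicate 2 passed (2.94). The number of members called was thus 0 to 1, and that of all miRNAs 0 to 38, with 1 library left out. All miRNAs called were 3 with no filter and 2 with the replicate block. Same-numbered libraries deviated from their group means with correlations of 0.13, -0.18 and -0.51 for replicates 1, 2 and 3, and no library correlated best with its own number. Deviations within a group constrain each other, so these values give no sign of pairing but cannot exclude it. With the replicate block the fold changes kept their values by construction (1.23, 1.53 and 1.90 for the a, b and c forms). No member was called, and 1 of 10 in the restraining fibrosis list was.

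The difference in log2 ratio of miR-29b-3p to miR-29a-3p, 0.31, was -0.24 with a pseudocount of 5, -0.052 from recovered counts and -1.04 to 1.11 with 1 library left out. That of miR-29c-3p to miR-29a-3p, 0.67, was 0.077 with a pseudocount of 5, 0.36 from recovered counts and -0.80 to 1.57 with 1 library left out. That of 3p to 5p, 1.15 for miR-29a and 1.03 for miR-29c, was 2.44 and 2.11 from recovered counts and 1.22 and 0.91 with a pseudocount of 5. With 1 library left out it was 0.22 to 1.66 for miR-29a and 0.11 to 1.56 for miR-29c. Each 5p arm had 0 counts in 3 of the 6 libraries, where the pseudocount sets this ratio. No conclusion is drawn from its direction. The pooled count ratios of the 5p arms, added after seeing the data, were 0.596 to 1.55 for miR-29a-5p and 0.78 to 3.79 for miR-29c-5p with 1 library left out, with no value where no control count was left. The cause of these turns was not tested. Counts of fibrosis-related miRNAs under each setting were added after seeing the data, and the positive counts were 9 to 10 of 10 and 2 to 3 of 6. Depth limits the rare forms most: 3 counts are 34.5 CPM in control replicate 1 and 4.205 CPM in IPC replicate 1.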
